A study of Mus musculus with 8 samples.

Results

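The genes for the subunits of the NMDA receptor, *Grin1*, *Grin2a*, *Grin2b*, *Grin2c*, *Grin2d* and *Grin3a*, were examined in RNA-seq libraries of the mature mouse motor cortex. These 6 genes were taken by name from 38031 genes in the count table. The rule for the members uses no measured value, although the family was picked with earlier results of these data known. The tissue came from male Swiss Webster mice, injected into the primary motor cortex (M1) at postnatal day 21 to 25 with a lentivirus that carried mCherry and either *Fezf2 shRNA* or *non-silencing shRNA* (control). M1 was dissected by its mCherry signal at postnatal day 49 to 53, and 4 libraries of total RNA were made for each treatment. The synapsin promoter of the vector is active in neurons, whereas the dissected tissue also holds the other cell types of M1 and may hold neurons the virus did not reach. A count covers the whole genomic interval of an annotated transcript, introns included, so the values describe all RNA of a gene and not its mature mRNA alone. *Fezf2* encodes a zinc finger transcription factor of deep-layer projection neurons, and the comparison asks how the subunit genes stood after its knockdown.

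NMDA receptors in their usual form are glutamate-gated channels that pass calcium. In that form they open when glutamate and a co-agonist, glycine or D-serine, are bound and the membrane is depolarized. Each receptor is an assembly of obligatory GluN1 subunits, encoded by *Grin1*, with GluN2 subunits that bind glutamate (*Grin2a* to *Grin2d*) or GluN3 subunits that bind glycine (*Grin3a* and *Grin3b*). In the forebrain GluN2B dominates before birth and GluN2A rises during postnatal development, which shortens the synaptic current. GluN2C is best known from cerebellar granule cells and astrocytes, GluN2D from interneurons and the early brain, and GluN3A lowers calcium entry and is highest in the young brain.

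The libraries held 54684016 to 58003814 counts when 1 transcript stood for each gene. The targeted gene, *Fezf2*, had 688, 767, 735 and 702 normalized counts in controls 1 to 4 and 621, 583, 568 and 593 with *Fezf2 shRNA*. The treatments did not overlap, and the log2 fold change was -0.29 ± 0.076 (SE, n = 4 against 4, edgeR adjusted p = 0.0765). Of 10 lists of cell type markers with 55 genes, none had a gene past the threshold of an adjusted p of at most 0.05 and a log2 fold change of at least 0.2 in either direction. Of all genes tested, 2.19% were past it. Markers too low in counts to be tested could not pass. This left 1 tested gene of 4 for endothelial cells, 1 of 5 for pericytes and meninges and 2 of 5 for striatal neurons. All 6 oligodendrocyte markers had a log2 fold change below 0 (median -0.53), and their summed level was 1120 to 2030 CPM (the counts of a gene scaled to library size) in controls and 833 to 1370 with *Fezf2 shRNA*. The other lists had medians from -0.24 to 0.06, apart from the cerebellar granule cell list, of which no gene was tested. The excitatory neuron list summed to 1120 to 1290 and 1110 to 1280 CPM, and the interneuron list to 304 to 355 and 291 to 320 CPM. No marker of any list was at 0 in all 8 libraries, and *Drd2* of striatal neurons and *Cbln3* and *Gabra6* of cerebellar granule cells were under 1 CPM. Fewer cells of a type and less RNA per cell cannot be told apart in such tissue, and the part of cell makeup in the results below was not tested.

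The sequence targeted by the *Fezf2 shRNA* is shown first, since it is the only difference designed between the treatments. It is the 19-nt coding stretch of *Fezf2* across exons 4 and 5 of ENSMUST00000022262 (GRCm38, chromosome 14, 12342741 to 12343639, minus strand), with the letters that pair with bases 2 to 8 of the complementary strand in capitals.
Fezf2 shRNA target: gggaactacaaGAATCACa
The longest stretch of these letters found in an annotated transcript of the subunit genes was 10 nt, in *Grin2a* and in *Grin2b*, against all 19 nt in *Fezf2*. The letters GAATCAC occurred in 1 of 6 protein-coding transcripts of *Grin2b*, which held 2 copies. They occurred in no protein-coding transcript of *Grin1*, *Grin2a*, *Grin2c*, *Grin2d* or *Grin3a*, and in 9.47% of all 58797 protein-coding transcripts of the annotation (sense strand). A match is a description of letters and not a site of action.

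*Grin2a* is the subunit gene for which the study designed qPCR primers, and their amplicon shows which RNA that assay reads. It is 137 nt of coding sequence across exons 4 and 5 of ENSMUST00000032331 (GRCm38, chromosome 16, 9663561 to 9669794, minus strand), with both primer sites in capitals.
Grin2a amplicon: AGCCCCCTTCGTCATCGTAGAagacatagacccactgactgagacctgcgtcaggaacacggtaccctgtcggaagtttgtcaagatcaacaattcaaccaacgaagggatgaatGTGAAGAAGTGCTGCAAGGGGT
The primer sites lie 6.2 kb apart in the genome and are joined by splicing, whereas the counts used here cover all 414.7 kb of the gene. The amplicon is present in 3 of the 6 annotated *Grin2a* transcripts.

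The subunit genes are paralogs, and some pairs share runs of identical letters, of 28 nt for *Grin2a* and *Grin2d* and of 32 nt for *Grin2c* and *Grin2d*. *Grin2a* and *Grin2b*, the members with the most reads, shared at most 24 nt in their annotated transcripts, in coding sequence of both genes.
Grin2a and Grin2b: AGTGACAAGAAGTTCCAGAGACCT

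In control M1 the obligatory subunit gene *Grin1* had the highest level per kb of counted interval, 10.4 ± 0.163 CPM per kb (SD, n = 4). *Grin2b* followed with 1.61 ± 0.257, then *Grin2c* with 1.08 ± 0.0726 and *Grin2a* with 1.06 ± 0.146 CPM per kb. *Grin2d* with 0.195 ± 0.00854 and *Grin3a* with 0.178 ± 0.0135 CPM per kb were lowest. The control ranges of *Grin2c* and *Grin2a* overlapped, as did those of *Grin2d* and *Grin3a*, and the other neighbours in this order did not overlap. This order is one of reads per kb of gene, in which a long gene with much intron is set low, and it is not an order of mRNA levels. In total reads per gene the order was different, with *Grin2b* at 739 ± 118 CPM, *Grin2a* at 441 ± 60.6 and *Grin1* at 292 ± 4.57.

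**Figure D1:**
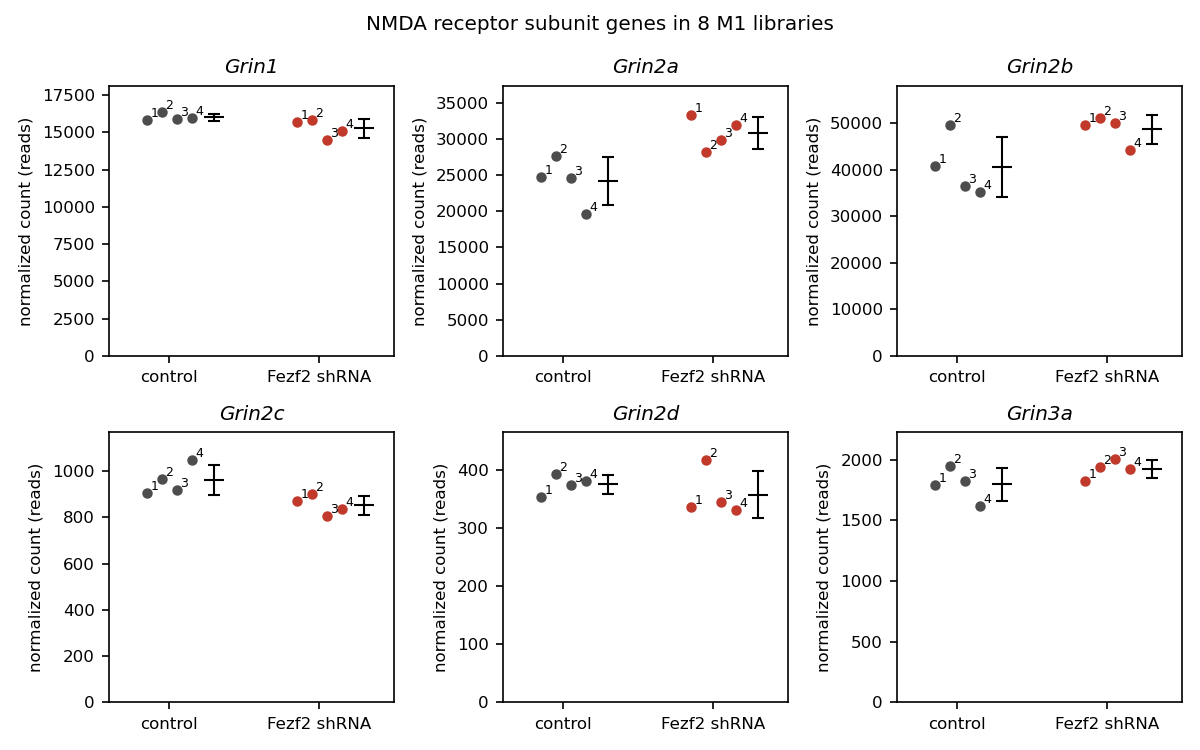
Normalized counts (reads, axis from 0) of the 6 subunit genes in each library, numbered by replicate, for control (grey) and *Fezf2 shRNA* (red), with bars for mean and SD of 4 libraries. All 4 *Fezf2 shRNA* libraries lie above the controls for *Grin2a* and below them for *Grin2c*, and for *Grin2b* control 2 lies among the *Fezf2 shRNA* libraries.

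Of the 6 subunit genes, 5 passed the filter on low counts (above 8 CPM in 4 libraries or more), and none of the 5 passed the threshold in edgeR, against 2.19% of all 9959 genes tested. The unadjusted edgeR p was under 0.05 for *Grin2a*, *Grin2b* and *Grin2c*, 3 of 5, against 19.7% of all genes. The treatments did not overlap for 2 of 5, *Grin2a* upward and *Grin2c* downward, against 11.8% of all genes, of which 7.41% were higher and 4.41% lower with *Fezf2 shRNA*. *Grin2d* was under the filter and was fitted with all genes over 1 CPM. With DESeq2 in place of edgeR 1 member, *Grin2a*, was past the same threshold, against 7.37% of all genes.

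*Grin1*, without which no NMDA receptor reaches the cell surface, differed least between the treatments among the tested subunit genes. It had 15815, 16371, 15880 and 15951 normalized counts in controls 1 to 4 and 15721, 15835, 14464 and 15072 with *Fezf2 shRNA*. The ranges overlapped, although 3 of 4 *Fezf2 shRNA* libraries were below every control. In edgeR the log2 fold change was -0.07 ± 0.0542 (SE, edgeR adjusted p = 0.501), with a 95% interval from -0.187 to 0.053. An antisense gene, *Grin1os*, overlaps the 3′ end of *Grin1* for 7706 bases, and the interval of *Grin1os* alone held reads equal to 56% of those of *Grin1* in controls. Whether the counting used strand is not stated, so reads of *Grin1* and *Grin1os* cannot be told apart there. In the 8.3 kb at the 5′ end of *Grin1*, outside *Grin1os*, the log2 fold change was -0.07 ± 0.0707 (edgeR adjusted p = 0.583).

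*Grin2a*, whose GluN2A subunit dominates at mature cortical synapses, was higher in every *Fezf2 shRNA* library than in any control. Its normalized counts were 24686, 27680, 24649 and 19666 in controls 1 to 4 and 33269, 28161, 29865 and 32017 with *Fezf2 shRNA*. The closest values across the treatments were control 2 and *Fezf2 shRNA* 2, which differed by little, and control 4 was the lowest of all. The means were 24170 ± 3320 and 30828 ± 2270 (SD, n = 4 each), 27.5% higher with *Fezf2 shRNA*. The log2 fold change of 0.35 ± 0.10 did not pass the threshold in edgeR (p = 0.00506, adjusted p = 0.0976, 95% interval 0.13 to 0.572), and the exact permutation test of the normalized counts gave p = 0.0286 (two-sided), the smallest that 4 against 4 allows. The call turned on the tool and on a single library, since DESeq2 gave an adjusted p of 0.0129 and edgeR without control 2 gave a log2 fold change of 0.42 (adjusted p = 0.0426).

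*Grin2b*, whose GluN2B subunit carries a long tail that binds CaMKII, had the most reads of the family. Its normalized counts were 40768, 49604, 36496 and 35299 in controls 1 to 4 and 49676, 51143, 49994 and 44168 with *Fezf2 shRNA*. In 3 of 4 *Fezf2 shRNA* libraries *Grin2b* was above every control, and control 2 stood well above the other controls and above *Fezf2 shRNA* 4. Its log2 fold change was 0.27 ± 0.106 (SE, edgeR adjusted p = 0.207), and it turned to -0.01 with the gene-length offset described below. Without control 2 it was 0.38 and past the threshold (adjusted p = 0.0332), and without control 4 it was 0.21 (adjusted p = 0.355).

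*Grin2c* was lower in every *Fezf2 shRNA* library than in any control, by a small margin. It had 908, 967, 918 and 1049 normalized counts in controls 1 to 4 and 870, 902, 806 and 836 with *Fezf2 shRNA*. The lowest control, 1, and the highest *Fezf2 shRNA* library, 2, were nearly equal. The log2 fold change was -0.17 ± 0.0752 (SE, edgeR adjusted p = 0.243), 11.2% lower, and the exact permutation test gave p = 0.0286 (two-sided). In the wider annotated interval of 18.1 kb the treatments overlapped and the exact permutation p was 0.0571. Astrocytes are a known source of *Grin2c* RNA, and the 7 astrocyte markers summed to 567 to 694 CPM in controls and 520 to 641 CPM with *Fezf2 shRNA*, with a median log2 fold change of -0.15 over the 6 that were tested. Cerebellar granule cell markers summed to 3.11 to 6.12 and 2.74 to 5.57 CPM. The part of astrocyte content in the *Grin2c* values was not tested.

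*Grin2d* was the least counted member, with 354, 393, 376 and 382 normalized counts in controls 1 to 4 and 337, 418, 346 and 332 with *Fezf2 shRNA*. *Fezf2 shRNA* 2 was the highest library of all and the other 3 were below every control, so that the ranges overlapped. The log2 fold change was -0.07 ± 0.109 (SE, edgeR adjusted p = 0.79), with a 95% interval from -0.308 to 0.172, and without *Fezf2 shRNA* 2 it was -0.15. The 7 markers of interneurons, the cells for which *Grin2d* is best known in the cortex, had a median log2 fold change of -0.09.

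*Grin3a* had 1794, 1952, 1823 and 1620 normalized counts in controls 1 to 4 and 1827, 1940, 2003 and 1926 with *Fezf2 shRNA*. Control 2 lay among the *Fezf2 shRNA* libraries, and the log2 fold change was 0.10 ± 0.0692 (SE, edgeR adjusted p = 0.443) with a 95% interval from -0.055 to 0.251. The remaining subunit gene of the family, *Grin3b*, is no member of the group studied and was counted at 15.7 to 60 normalized counts per library, under every filter, with means of 40.8 and 41.7.

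The differences of the members followed the length of the interval counted, as those of all genes did. Over all tested genes the median log2 fold change was -0.12 under 10 kb, -0.07 from 10 to 30 kb, 0.01 from 30 to 100 kb, 0.15 from 100 to 300 kb and 0.29 over 300 kb. *Grin2a* (414.7 kb) and *Grin2b* (459.9 kb) belong to the 407 genes over 300 kb, of which 24.6% were past the threshold upward and 50.1% had every *Fezf2 shRNA* library above every control. Of these 407 genes, 66.8% had a lower log2 fold change than *Grin2a* and 42.8% a lower value than *Grin2b*. *Grin3a* (183.9 kb) was above 37.7% of the 1297 genes of its length class, and *Grin1* (27.9 kb) above 53% of the 2983 genes of its own. *Grin2c* (16.3 kb) was above 14.9% of that same class of 10 to 30 kb. *Grin2d* (35.2 kb), with its value from the fit of genes over 1 CPM, was above 21.8% of the 3119 tested genes from 30 to 100 kb. *Grin2c* and *Grin2d* thus stood low in their classes.

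When the dependence of each library on gene length was removed by an offset in the fit, no member was near the threshold. *Grin2a* then had a log2 fold change of 0.08 ± 0.071 (edgeR adjusted p = 0.736) and *Grin2b*, with its sign reversed, -0.01 ± 0.0969 (adjusted p = 0.975). *Grin3a* changed sign to -0.07 ± 0.0626, and *Grin2c* was -0.10 ± 0.0684 (adjusted p = 0.674). Only 1 of 9959 genes was past the threshold in that fit (0.01%), so the offset removed nearly all calls of the series and not those of the receptor genes in particular. A true difference shared by long genes would be removed by it as well.

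**Figure D2:**
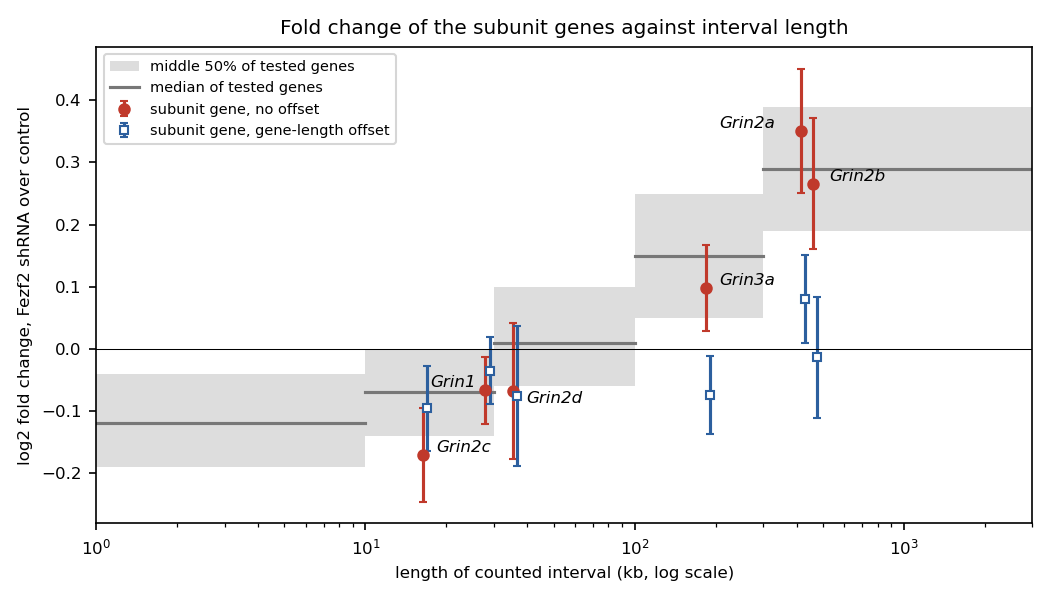
Log2 fold change of *Fezf2 shRNA* over control (error bars, SE) against the length of the counted interval in kb (log scale) for the 6 subunit genes, without (red) and with (blue squares, drawn slightly to the right) the gene-length offset, over the median and middle 50% of all tested genes in 5 length classes (grey, the outer classes drawn to the edge of the plot). *Grin2a* at 0.35 and *Grin2b* at 0.27 lie within the grey band of genes over 300 kb, whose median is 0.29.

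The annotated transcripts of *Grin2b* begin near the same 5′ end and stop at different places, so that the gene could be read in 4 consecutive parts. The interval of 129.3 kb at the 5′ end (ENSMUST00000143943, chromosome 6, 136044196 to 136173511) is 0.732% exonic. The next 174.5 kb are 0.912% exonic, the next 139.9 kb are 4.08% exonic, and the last 16.2 kb, at the 3′ end of the gene, are annotated as exon throughout. Read density in controls was 39.7, 36 and 87.8 normalized reads per kb in the first 3 parts and 1040 in the last. The last part thus held 41.3 ± 3.12% of the reads of *Grin2b* on 3.52% of its bases.

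The part at the 5′ end had 4378, 6826, 4923 and 4423 normalized counts in controls 1 to 4 and 7693, 7307, 7370 and 6213 with *Fezf2 shRNA*. Every *Fezf2 shRNA* library was above controls 1, 3 and 4, and control 2 was above *Fezf2 shRNA* 4. The log2 fold change was 0.48 ± 0.127 (edgeR adjusted p = 0.0697), and in the following parts it was 0.38 ± 0.131 and 0.29 ± 0.0901. In the 174.5-kb part every *Fezf2 shRNA* library was above every control (edgeR adjusted p = 0.159), and in the 139.9-kb part the treatments overlapped. Of the intronic parts of all genes, 25.9% did not overlap. In the exonic 3′ part the normalized counts were 17377, 21602, 13390 and 14951 in controls and 17090, 20630, 19568 and 16386 with *Fezf2 shRNA*. Here the treatments overlapped widely, and the log2 fold change was 0.13 ± 0.131 (edgeR adjusted p = 0.633), where 0.4% of the exonic parts of all genes passed the threshold when parts between intervals that are not nested are included. Without control 3 it was 0.035 and without control 2 it was 0.273. With all 8 libraries the log2 fold change was smaller in each part than in the part before it.

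The differences between the parts of *Grin2b* did not pass a test. The log2 ratio of the 5′ part to the exonic 3′ part was -1.99, -1.66, -1.44 and -1.76 in controls 1 to 4 and -1.15, -1.50, -1.41 and -1.40 with *Fezf2 shRNA*. It was higher by 0.349 with *Fezf2 shRNA*, and the exact permutation test gave p = 0.0571 (two-sided, 0.19 after Benjamini-Hochberg adjustment over 5 such ratios in *Grin2a* and *Grin2b*). *Fezf2 shRNA* libraries 1, 3 and 4 were above every control, and control 3 was above *Fezf2 shRNA* 2. The same ratio was higher by 0.227 for the 174.5-kb part (exact permutation p = 0.343) and by 0.146 for the 139.9-kb part (exact permutation p = 0.114). In 1157 genes the intronic part with the most reads could be compared with the exonic part with the most reads. That ratio was higher with *Fezf2 shRNA* in 82.7%, with a median difference of 0.161, and the treatments did not overlap in 13.8%. The *Grin2b* value chosen in this way is the 0.146 of the 139.9-kb part, and not that of the 5′ part.

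**Figure D3:**
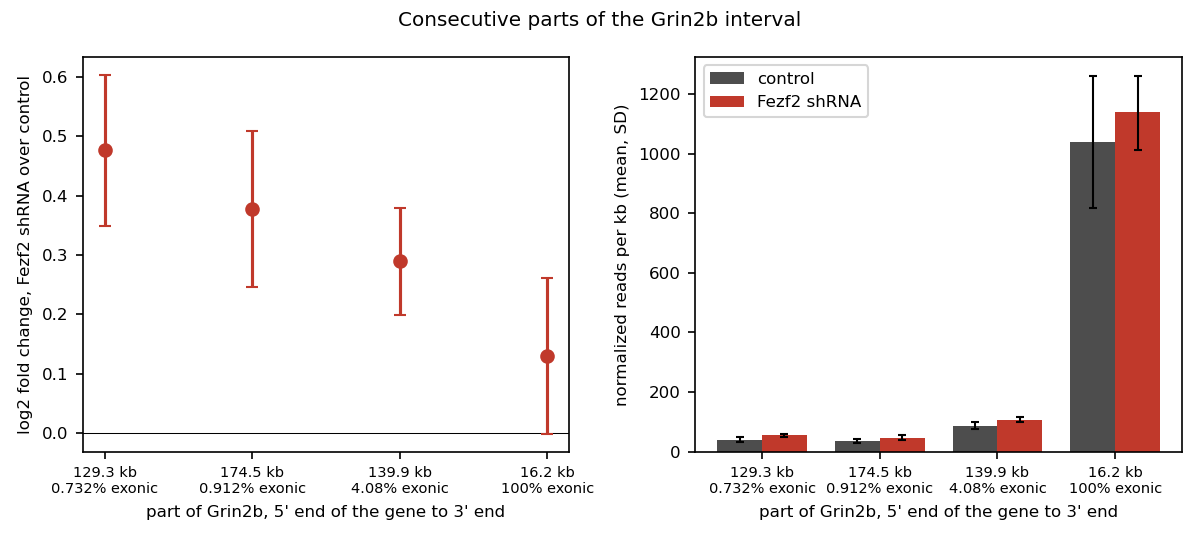
Left, log2 fold change of *Fezf2 shRNA* over control (error bars, SE) in 4 consecutive parts of the *Grin2b* interval from its 5′ to its 3′ end, each named by its length in kb and the exonic share of its bases. Right, mean normalized reads per kb in the same parts (error bars, SD of 4 libraries), where the exonic part reaches 1040 and 1140 and the other parts stay at or under 107.

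The parts of *Grin2a* told less about exons. Its first 2.6 kb (ENSMUST00000156482, chromosome 16, 9991655 to 9994270) are exonic only through a transcript annotated as a retained intron, and protein-coding transcripts cover 24.6% of these bases. This part had 784, 770, 594 and 651 normalized counts in controls 1 to 4 and 785, 878, 721 and 676 with *Fezf2 shRNA*. The treatments overlapped, with a log2 fold change of 0.13 ± 0.114 (edgeR adjusted p = 0.594). Another exonic part of *Grin2a*, 2.1 kb at both ends of the gene that overlaps the first, is covered to 29.4% by protein-coding transcripts and had a log2 fold change of 0.23 ± 0.116 (edgeR adjusted p = 0.328). The remaining 414.2 kb, 1.09% exonic, had a log2 fold change of 0.36 ± 0.101 (adjusted p = 0.0872) without overlap, as had 25.9% of the intronic parts of all genes. The log2 ratio of the remaining interval to the first 2.6 kb differed by 0.231 (exact permutation p = 0.171, adjusted over the 5 ratios 0.214).

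Over the family, 0 of 7 intronic parts and 0 of 2 exonic parts passed the threshold in edgeR. Nor did the 3′ part of *Grin2b*, which is counted apart as the intervals behind it are not nested. The 2 exonic parts both belong to *Grin2a* and share bases, as do some of the intronic parts. These counts stand against 10.9% of 10723 intronic and 0.295% of 6782 exonic parts of all genes. Without control 2, 4 of the 7 intronic parts were past the threshold, in *Grin2a* and *Grin2b*. The share of exonic bases says how a part is annotated, and it does not say how many of its reads came from exons. Whether a spliced read was counted in an intron that it spans is not stated in the sources used here. A noncoding gene on the opposite strand, *Gm14329*, lies within the 139.9-kb part of *Grin2b*. In controls its interval held 4077.5 normalized counts on average, equal to 10.1% of those of all *Grin2b*, whereas the 139.9-kb part alone held 12284.

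In *Grin3a* the parts had similar values. The 76.1-kb interval at its 5′ end had a log2 fold change of 0.08 ± 0.0942 and the rest of the gene, 107.8 kb, 0.11 ± 0.0784. The treatments overlapped in the 76.1-kb interval and did not in the 107.8-kb part (edgeR adjusted p = 0.487). Over all genes they did not overlap in 11.8%. *Ppp3r2*, a calcineurin subunit gene that lies within *Grin3a*, was counted at 15.7 normalized counts in controls, 0.872% of the reads of *Grin3a*. In *Grin1* the 9 annotated intervals counted had log2 fold changes from -0.11 to -0.01, and 3 of them changed sign when a library was left out. In the 12.4-kb interval near the 3′ end, which overlaps *Grin1os*, every *Fezf2 shRNA* library was below every control. Its log2 fold change was -0.11 ± 0.0565 (edgeR adjusted p = 0.272), and the treatments did not overlap in 11.8% of all genes.

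The balance between GluN2A and GluN2B sets the time course of the synaptic current. Counts over whole genes measure neither that balance of proteins nor one of mRNA. In controls 41.3% of *Grin2b* reads lay in its exonic 3′ part, and most *Grin2a* reads lay in an interval that is 1.09% exonic. As a description of all RNA, the ratio of *Grin2a* to *Grin2b* counts was taken within each library. It was 0.606, 0.558, 0.675 and 0.557 in controls 1 to 4 and 0.67, 0.551, 0.597 and 0.725 with *Fezf2 shRNA*. The treatments overlapped over most of their range, the difference on the log2 scale was 0.082, and the exact permutation p was 0.571.

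The ratio of *Grin2a* to the obligatory *Grin1* was 1.56, 1.69, 1.55 and 1.23 in controls and 2.12, 1.78, 2.06 and 2.12 with *Fezf2 shRNA*. The treatments did not overlap, with a difference of 0.427 on the log2 scale (exact permutation p = 0.0286, 0.0856 after Benjamini-Hochberg adjustment over the 6 ratios computed). The ratio of *Grin2b* to *Grin1* was higher by 0.345 and overlapped at control 2 (exact permutation p = 0.0571). That of *Grin2c* to *Grin1* was lower without overlap, a difference of -0.101 on the log2 scale (exact permutation p = 0.0286). Those of *Grin2d* and *Grin3a* to *Grin1* differed by -0.008 and 0.169, both with overlap (exact permutation p = 0.0571 for the latter). After adjustment over the 6 ratios none was under 0.05. Ratios to *Grin1* failed to overlap in 12% of all tested genes and ratios to *Grin2b* in 15.3%. With the length trend removed the *Grin2a* to *Grin1* difference was 0.145 (exact permutation p = 0.0857).

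**Figure D4:**
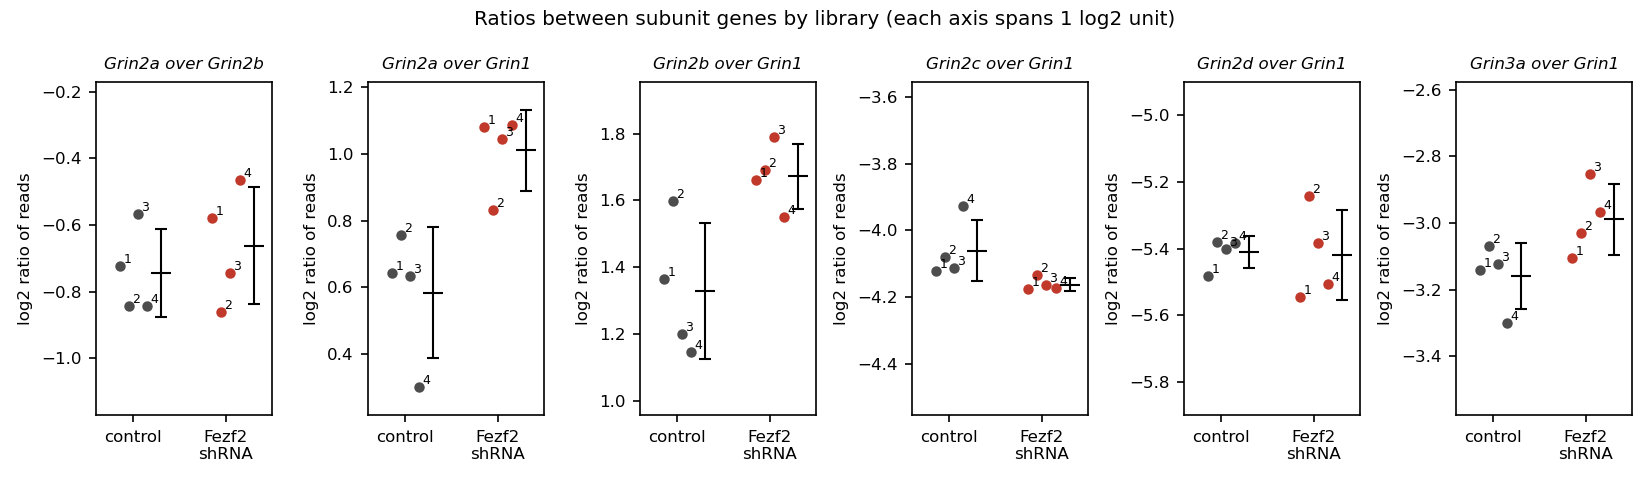
Log2 ratio of reads between subunit genes in each library, numbered by replicate, for control (grey) and *Fezf2 shRNA* (red), with bars for mean and SD of 4 libraries. Each axis spans 1 log2 unit, and the treatments are apart for *Grin2a* over *Grin1* and, by a narrow gap, for *Grin2c* over *Grin1*, while *Grin2a* over *Grin2b* overlaps.

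The genes that anchor, modify and supply the receptor were taken as 6 lists with 56 genes, with 50 of them tested. Of these, 3 rose past the threshold (6%, against 2.06% of all genes). Among the 3 are *Dlgap2* (667.4 kb) and *Dlg2* (1356.3 kb), and of all genes over 300 kb 24.6% rose past the threshold. The postsynaptic scaffold had the highest median. All 14 tested scaffold genes of 15 had a log2 fold change above 0, as did 43.4% of all genes, and their median was 0.23. With the gene-length offset the median was 0.124, and *Dlg1* (-0.018), *Dlg3* (-0.007) and *Dlgap1* (-0.088) were below 0. The untested gene of the list, *Homer3*, was under the filter and lower in every *Fezf2 shRNA* library than in any control (log2 fold change -0.22 ± 0.114, edgeR adjusted p = 0.363 in the fit of genes over 1 CPM). Past the threshold were *Dlgap2* and *Dlg2*, which encode a binding partner of PSD-95 and the scaffold PSD-93. *Dlgap2* had 18213, 20288, 21111 and 16281 normalized counts in controls and 29879, 26705, 28548 and 27258 with *Fezf2 shRNA*. The gap between the treatments was wide, with a log2 fold change of 0.57 ± 0.0848 (edgeR adjusted p = 0.0246). For *Dlg2* it was 0.42 ± 0.0886 (adjusted p = 0.0396). PSD-95 itself, *Dlg4*, had a log2 fold change of 0.01 ± 0.0821.

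Among the kinases, phosphatases and exchange factors at the receptor, 1 of 16 passed, *Camk2d*, a delta chain of the calcium/calmodulin kinase. It had 1741, 1877, 1926 and 1732 normalized counts in controls and 2235, 2443, 2235 and 2090 with *Fezf2 shRNA*. All *Fezf2 shRNA* libraries were above the controls, and the log2 fold change was 0.31 ± 0.0681 (edgeR adjusted p = 0.0448). The forebrain chains that bind GluN2B, *Camk2a* and *Camk2b*, had log2 fold changes of 0.16 and 0.09. The median of this list was 0.11.

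These 3 calls depended on which libraries were used. All 3 held without control 2. With each library left out in turn, *Dlgap2* passed in 3 of 8 fits, *Dlg2* in 2 of 8 (without control 2 or *Fezf2 shRNA* 2) and *Camk2d* in 1 of 8 (without control 2). With the gene-length offset none passed. *Camk2d* then had a log2 fold change of 0.30 (adjusted p = 0.207), *Dlgap2* 0.26 (0.169) and *Dlg2* 0.08 (0.668). The offset goes by the length of the counted interval, which is 40.2 kb for *Camk2d* and need not be that of the whole gene.

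None of the 10 genes for delivery and surface partners passed, with a median log2 fold change of 0.10. The smallest p values among them were those of *Lin7c*, an adaptor in the complex that carries GluN2B along dendrites (log2 fold change -0.18, edgeR adjusted p = 0.134), and *Cask*, its partner (0.19, adjusted p = 0.154, and -0.06 with the gene-length offset). None of the 6 tested of 10 genes for glycine and D-serine supply passed in edgeR, with a median of -0.12. *Slc7a10*, the exchanger that moves D-serine and glycine across astrocyte and neuron membranes, had 896, 762, 748 and 886 normalized counts in controls and 713, 659, 613 and 611 with *Fezf2 shRNA*. The treatments did not overlap, and the log2 fold change was -0.34 ± 0.0924 (edgeR adjusted p = 0.0827), while DESeq2 put *Slc7a10* past the threshold (adjusted p = 0.0232). *Phgdh*, which starts serine synthesis, was at -0.21 (adjusted p = 0.18). None of the 4 genes of glutamate uptake and conversion passed, with a median of 0.05. *Slc1a2*, the main astrocyte transporter, was at 0.115 ± 0.0791 (edgeR adjusted p = 0.433), and *Glul*, glutamine synthetase, at 0.109 ± 0.108 (adjusted p = 0.59). A single library carried each value, since *Slc1a2* was at 0.039 without *Fezf2 shRNA* 3 and *Glul* at -0.002 without *Fezf2 shRNA* 2. With its widest interval *Slc1a2* was at 0.01.

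The other ionotropic glutamate receptor genes, 11 subunits of AMPA, kainate and delta receptors, were measured beside the NMDA receptor genes. None of the 11 passed the threshold in edgeR, 6 had an unadjusted p under 0.05, all with a log2 fold change above 0 (19.7% of all genes had such a p in either direction), and 4 passed in DESeq2 (7.37% of all genes). Their median interval was 318.4 kb, and 24.6% of all genes over 300 kb rose past the edgeR threshold. Their median log2 fold change was 0.226, against 0.098 for the 5 tested NMDA receptor genes and -0.027 for all genes, and with the length offset the medians were -0.045, -0.035 and -0.011. *Gria4*, an AMPA receptor subunit gene with the largest log2 fold change of the 11, had 13777, 13617, 13601 and 11909 normalized counts in controls and 18456, 15748, 16722 and 15200 with *Fezf2 shRNA*. The treatments did not overlap, and the log2 fold change was 0.32 ± 0.0763 (edgeR adjusted p = 0.0573). That of *Grik4*, a kainate receptor subunit gene, was 0.30 ± 0.086 (edgeR adjusted p = 0.098).

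The tested genes whose levels ran most like a subunit gene over the 8 libraries were named by the Pearson correlation of log2 CPM, as a description, since all share the libraries and the group difference. For *Grin2a* they were *Wasf1* (r = 0.984), *Ap3b1* (0.98) and *Erc1* (0.978), and 221 genes had an r over 0.9. For *Grin2b* they were *Tln2* (0.982), *D430041D05Rik* (0.974) and *Mark1* (0.968). For *Grin2c* they were *Cep97* (0.98), *Zbtb7b* (0.973) and *Cluh* (0.961), for *Grin1* *Gm17638*, *Zbtb17* and *Gdap1* (0.938 to 0.939), and for *Grin3a* *Dhx9*, *Vps13d* and *Sec22c* (0.953 to 0.959). None of these genes is a glutamate receptor subunit.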

How the data were processed

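The authors deposited raw counts per Ensembl transcript for 8 libraries, made with TopHat2 2.1.1 and bedtools 2.26.0 (multiCov) on mm10/GRCm38 per the labels and the methods. Of 94647 transcripts, 91320 were found in GENCODE M21. Per gene, the counts of the transcript with the lowest Ensembl number were used. A second deposited table holds the authors' own DESeq2 comparison and was not used. Genes above 8 CPM in 4 libraries or more were tested with edgeR 4.0.16 (TMM, quasi-likelihood test, Benjamini-Hochberg over all 9959 genes, no covariate) in R 4.3.3. A gene passed the threshold if its adjusted p was 0.05 or lower and its log2 fold change 0.2 or more in size. Normalized counts are counts scaled to the mean effective library size. Intervals and parts (mean of at least 100 reads, exonic at 80% or more of bases, intronic at 5% or less) were fitted likewise with the same library sizes. Single values were compared by exact permutation over 70 splits. The length offset was a loess curve (span 0.3) per library. DESeq2 1.42.0, other filters, normalizations, thresholds and transcripts, each library left out and the replicate number as a block were alternatives. The statistical scripts were tested on simulated data.

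The members and gene lists were chosen with earlier results of these data known. Named are the 6 members, *Fezf2*, the pathway genes past the threshold (or the 2 with the smallest p in a list without any), and for each tested member the 3 genes with the highest correlation. *Grin1os*, *Gm14329*, *Ppp3r2*, *Grin3b*, *Dlg4*, *Camk2a*, *Camk2b*, *Homer3*, *Dlg1*, *Dlg3*, *Dlgap1*, *Drd2*, *Cbln3* and *Gabra6* were named after their values were seen. Parts between intervals whose 5′ ends differ slightly (the last 16.2 kb of *Grin2b* and the 107.8 kb of *Grin3a*), the exonic share by protein-coding transcripts alone and the length offset with the median of ratios were chosen after seeing the data. Each library was taken as a separate tissue sample. If libraries share animals, p-values measure technical spread only. Same-numbered libraries deviated together weakly or not at all (correlations -0.133 to 0.296), and numbers were not taken as pairs in the main fit. Other runs shared by members are not reported here. Sequences and coordinates are from GENCODE M21 and the primer and shRNA lists of the study. Counting error was 0.474% (*Grin2b*) to 5.22% (*Grin2d*) of the mean count per member.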

Additional observations from a re-analysis of the deposited data

Results flagged for a closer look

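Of 72 groups of 4 libraries examined for a single library that stands apart, 5 were flagged (the gap to the nearest library took up most of the group's range, by Dixon's 95% limit), and chance flags about 1 in 20, or 5%. *Grin2d* in *Fezf2 shRNA* 2 had 418.07 normalized counts against 332 to 346 in the other 3 *Fezf2 shRNA* libraries. The *Grin1* interval of 4.8 kb near its 5′ end (ENSMUST00000144402) had 3024.5 normalized counts in control 1 against 3430 to 3483 in the other controls. The *Grin2b* interval of 303.8 kb had 18015 normalized counts in *Fezf2 shRNA* 1 against 14276 to 14536 in the others of its group. The log2 ratio of *Grin2a* to *Grin1* was 0.83061 in *Fezf2 shRNA* 2 against 1.05 to 1.09 in the others. The log2 ratio of the first 129.3 kb of *Grin2b* to the 139.9-kb part was -0.921 in *Fezf2 shRNA* 1 against -1.14 to -1.11. The causes were not tested.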

How the results depend on the processing

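No result past its threshold reversed under any alternative run, and the log2 fold changes of *Grin2b*, *Grin3a* and *Cask*, which were not past it, turned negative with the gene-length offset. *Grin2a*, at a log2 fold change of 0.351 and not past the threshold in edgeR, passed with DESeq2 (0.308 with its prior, 0.357 without) and with an adjusted p of at most 0.1 alone (0.351), as did *Fezf2* (-0.253, -0.283 and -0.29), which makes 1 member past the threshold in place of 0 under each of these settings. Of the pathway genes, 3 passed in edgeR. The count was 7 with either form of DESeq2, 5 at an adjusted p of at most 0.1 alone, 1 with a filter of more than 1 CPM, without a filter, or with the replicate number as a block, and 0 with the gene-length offset, with or without the block or the median of ratios. The *Grin2a* to *Grin1* difference was 0.145 with the length trend removed, and that of *Grin2c* to *Grin1* was -0.062 then and -0.098 with the widest intervals. With each library left out in turn, *Grin2a* ranged from 0.267 to 0.422 and *Grin2b* from 0.207 to 0.377. The members past the threshold ranged from 0 to 2, the pathway genes from 0 to 4 and the intronic parts of members from 0 to 4, each highest without control 2. The *Grin2a* to *Grin1* difference ranged from 0.333 to 0.487, *Grin2b* to *Grin1* from 0.284 to 0.435 and *Grin2c* to *Grin1* from -0.122 to -0.056. Over all genes, 218 were past the threshold, 0 without control 1 and 401 without control 2, 734 with DESeq2 with its prior and 85 without a filter. With the replicate block there were 89, and *Grin2a* had a log2 fold change of 0.359 (edgeR adjusted p = 0.129) and *Grin2b* of 0.277 (edgeR adjusted p = 0.127). The causes were not tested. Counting error was of the size of the spread between libraries for *Fezf2* and for *Grin2d* in controls (SD 16.5 on a mean of 376.33). It was smaller than the spread of *Grin2d* with *Fezf2 shRNA* (SD 40.2 on a mean of 358.37) and than that of *Grin2a* and *Grin2b*. The counts cannot separate spliced from unspliced RNA, and neither the use of strand nor the handling of spliced reads in the counting is stated.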
